A study of Mus musculus with 2 samples.

Results

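Tumour endothelial cells, the cells that line the blood vessels of the allograft, were examined in 1 vehicle-treated and 1 TAK-931-treated J558 tumour by droplet single-cell RNA sequencing. J558 is a mouse plasmacytoma line, and the tumours had been grown under the skin of the right flank of female BALB/c mice, so the endothelium came from the host. The vehicle mouse received 0.5% methylcellulose by mouth, and the treated mouse received TAK-931, an inhibitor of the replication kinase CDC7, at 60 mg/kg once a day, both for 6 days. Each library came from 1 allograft, which the study had picked as representative of its group. No animal-to-animal error can be given with 1 library per group, every interval below covers counting error only, and no test of treatment was possible.

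The cells were selected on their measured counts of unique molecular identifiers (UMIs, each standing for 1 captured transcript). A barcode was kept when it had over 2000 genes and under 15% of its UMIs in mitochondrial (mt-) genes. It was then taken as endothelial when it held at least 3 UMIs of Cdh5, Kdr, Plvap and Esam together and at least 1 of Pecam1. Barcodes with 10 or more UMIs of Col1a1, Col1a2 and Rgs5 (fibroblast and mural genes), over 1 of the CD3 genes, over 1 of Csf1r (a macrophage receptor) or 3 or more of Trap1a (a tumour antigen of J558) were left out. This gave 266 cells of 11123 barcodes, with 79 of 4565 in the vehicle library and 187 of 6558 in the TAK-931 library. The genes of this gate are given as a description and are left out of the counts and sums below unless stated.

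Endothelial cells form the wall across which nutrients, antibodies and leukocytes leave the blood. In growing tumours they sprout under vascular endothelial growth factor (VEGF): tip cells lead each sprout, degrade the basement membrane and lay down new matrix, while Notch signals keep the neighbouring cells in the stalk. Under inflammatory cytokines such as interferon-γ (IFN-γ) the same cells display more major histocompatibility complex (MHC) molecules, adhesion molecules for leukocytes and chemokines. The comparison therefore asked how the vessel lining of the treated tumour differed from that of the vehicle tumour in both respects, across all measured genes.

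Interferon signals act on DNA through a pair of short elements. Factors activated under IFN-γ bind the gamma activated site (GAS: TTC, any 3 bases, GAA), and interferon regulatory factors bind the interferon-stimulated response element (ISRE: GAAA, any 2 bases, GAAA). The 250 bases before the RefSeq start of 4 genes are shown because these genes span the responses described below: a strongly higher guanylate-binding protein, the factor Irf1, the chemokine Cxcl10 and an interferon-stimulated gene whose level was similar in both libraries. Coordinates are in GRCm38.p6, each sequence runs 5′ to 3′ on the strand of the gene, and capitals mark GAS or ISRE letters found on either strand.
Gbp5, chr3:142496684-142496933, plus strand: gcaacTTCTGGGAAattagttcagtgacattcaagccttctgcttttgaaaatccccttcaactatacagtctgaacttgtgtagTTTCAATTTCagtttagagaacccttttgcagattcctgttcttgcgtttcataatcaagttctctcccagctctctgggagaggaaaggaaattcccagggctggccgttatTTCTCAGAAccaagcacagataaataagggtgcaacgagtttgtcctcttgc
Irf1, chr11:53769764-53770013, plus strand: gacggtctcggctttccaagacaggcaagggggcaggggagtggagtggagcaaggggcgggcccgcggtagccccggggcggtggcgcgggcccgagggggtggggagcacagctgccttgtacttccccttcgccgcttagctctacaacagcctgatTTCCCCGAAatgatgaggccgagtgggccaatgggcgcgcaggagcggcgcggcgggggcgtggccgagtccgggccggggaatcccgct
Cxcl10, chr5:92348890-92349139, minus strand: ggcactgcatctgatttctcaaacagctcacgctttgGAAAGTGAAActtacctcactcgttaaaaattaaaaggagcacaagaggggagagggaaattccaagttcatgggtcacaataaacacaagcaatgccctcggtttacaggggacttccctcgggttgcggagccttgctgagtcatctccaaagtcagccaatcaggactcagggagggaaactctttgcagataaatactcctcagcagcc
Isg15, chr4:156200819-156201068, minus strand: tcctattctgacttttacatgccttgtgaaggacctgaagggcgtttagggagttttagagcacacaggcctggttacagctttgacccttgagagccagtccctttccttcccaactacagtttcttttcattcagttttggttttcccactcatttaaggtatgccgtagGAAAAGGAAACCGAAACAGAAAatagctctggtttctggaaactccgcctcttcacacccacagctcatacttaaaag
Gbp5 held a GAS at -245 to -237, an ISRE at -165 to -156 and another GAS at -52 to -44, counted from the base before the start. Irf1 held a GAS at -90 to -82. Cxcl10 held an ISRE at -213 to -204, and Isg15 held 3 overlapping ISRE matches starting at -78, -72 and -66. A match describes letters in the window and does not show that a factor bound there.

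The label held in both libraries against markers that the gate had not used. All 17 further endothelial markers were higher in the selected cells than in the other kept cells of the same library. The fatty acid carrier Fabp4 stood at 5137 CPM (the gene's UMIs scaled to a common total of UMIs over all genes) in the vehicle cells against 17.1 in the other kept vehicle cells, and at 8166 against 222 CPM under TAK-931. The tight junction gene Cldn5, the transcription factors Erg and Sox18 and the sialomucin Emcn were likewise enriched. The enrichment ranged from 35-fold (Egfl7) to 501-fold (Erg) in the vehicle library and from 12.3-fold (Flt1) to 71.0-fold (Cldn5) in the TAK-931 library, and it was smaller under TAK-931 for each of these markers except Egfl7 (45.2-fold).

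The depth per cell was similar, while other cell features differed. Vehicle cells had a median of 15692 UMIs and 4115 genes and TAK-931 cells one of 13314 UMIs and 3309 genes, and their summed UMIs were 1458962 and 3134552. The median mitochondrial share was 4.56% under vehicle and 7.61% under TAK-931. The median sum of the 4 gate genes was 90 UMIs in the vehicle cells and 35 in the TAK-931 cells. At the edge of the gate, 3 TAK-931 cells and 0 vehicle cells had exactly 3 of these UMIs, and 7 and 0 barcodes were left out with 2 of them. The libraries shared 8 barcode sequences, none of them among the 266 cells.

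RNA of other lineages was present in the TAK-931 cells, and its part in the results below was not tested. Ptprc, the pan-leukocyte gene, had a UMI in 0 of 79 cells of the vehicle tumour and 36 of 187 of the treated one. The 12 macrophage genes other than Csf1r summed to 111 CPM in the vehicle and 2158 CPM in the TAK-931 cells, and 11 of the 12 stood at a higher level under TAK-931. This RNA was uneven among cells. With the UMIs of Tyrobp, Fcer1g, Lyz2, C1qa, C1qb and C1qc added up, 80 TAK-931 cells had at most 2 of them and a macrophage-list level, Csf1r included, of 326 CPM, 75 had 3 to 9 and a level of 454 CPM, and 32 had 10 or more and a level of 9049 CPM. Of the vehicle cells, 77 had at most 2, with a level of 93.8 CPM. The 7 T and natural killer cell genes outside the gate summed to 0.685 and 281 CPM, of which Ccl5 made up 0.685 and 244 CPM, the 5 dendritic genes to 1.37 and 15.3 CPM, the 4 neutrophil genes to 6.17 and 6.70 CPM, and the 4 fibroblast genes outside the gate to 17.1 and 9.89 CPM. The 10 plasmacytoma genes other than Trap1a summed to 1354 and 375 CPM and the 7 erythroid and platelet genes to 56.2 and 13.1 CPM. The widest shift towards the vehicle was that of the 7 mural genes other than Rgs5, at 921 and 19.1 CPM, the vehicle level coming nearly all from Kcnj8 and Abcc9, which are described below. From the other lineages' markers, free RNA was estimated at 1.75% of the vehicle and 4.01% of the TAK-931 endothelial UMIs. The comparison was therefore repeated with the 77 vehicle and 80 TAK-931 cells that had at most 2 of these myeloid UMIs, called myeloid-poor cells below. They still held a Ptprc UMI in 9 of the 80 TAK-931 cells, and the T and natural killer genes summed to 0.711 and 99.0 CPM in them, again mostly Ccl5 (0.711 and 90.8 CPM).

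The treated tumour yielded a larger share of endothelial cells among all kept cells and a smaller one among non-tumour cells. The share of kept cells was 2.30% (79 of 3441, exact 95% interval 1.82 to 2.85%) in the vehicle and 5.36% (187 of 3488, 4.64 to 6.16%) in the TAK-931 library, a difference of 3.07 percentage points (Newcombe interval 2.17 to 3.98). Of the kept cells with under 3 Trap1a UMIs, endothelial cells were 18.9% (79 of 419, 15.2 to 22.9%) in the vehicle and 5.56% (187 of 3364, 4.81 to 6.39%) in the TAK-931 library. Both shares depend on how many tumour and immune cells were captured beside them. With myeloid-poor cells alone the shares of kept cells were 2.24% and 2.29%.

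Across the transcriptome, most genes of the MHC class I and class II, IFN-γ GTPase and chemokine lists were higher in the TAK-931 endothelium, while the calls in the tip cell, angiogenic and basement membrane lists were mostly lower. UMIs were summed over the cells of each library and scaled to CPM, and a gene was compared where the sums held 20 UMIs or more between them. It was called higher or lower when the CPM differed at least 2-fold and the exact 95% counting interval of the ratio excluded 1. Of 10037 genes compared, 809 were higher in TAK-931 (8.06%) and 926 were lower (9.23%). The median log2 ratio of TAK-931 over vehicle was -0.14 over all compared genes and -0.26 over genes that reached 50 UMIs in both libraries separately. With the ratios divided by that second median, higher genes made up 66.9% of the calls instead of 46.6%, so calls close to 2-fold depend on the scaling.

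The same comparison in cells with under 10% mitochondrial UMIs used 74 vehicle and 135 TAK-931 cells. Of 9706 genes compared there, 781 were higher (8.05%) and 921 were lower (9.49%). Of the genes called under the 15% limit, 726 of the 809 higher and 831 of the 926 lower genes were called in the same direction, and none in the opposite one. Among the myeloid-poor cells, 374 of 8305 genes were higher (4.5%) and 1109 were lower (13.4%). Of the calls in all cells, 276 of the 809 higher and 664 of the 926 lower genes were called the same way there, and 1 turned from higher to lower. The median log2 ratio over the 8305 genes compared there was -0.29. Counts and medians in the myeloid-poor cells are given beside the lists below, to be read against that median and the shares of all genes just given. List counts over all cells are to be read against 8.06% higher and 9.23% lower.

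**Figure D1:**
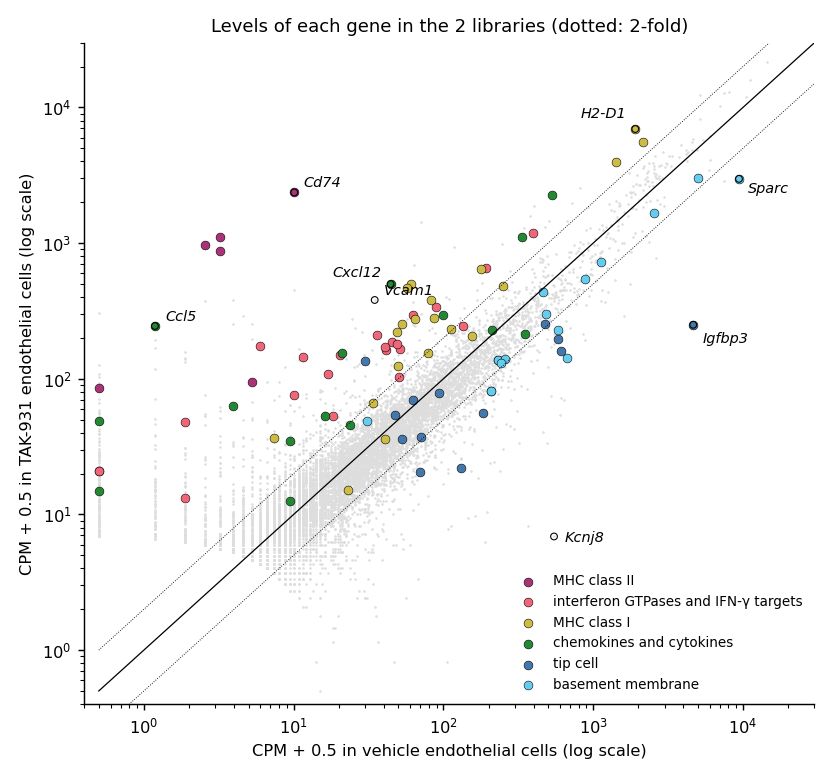
Level of each gene in the vehicle endothelial cells (x axis) and in the TAK-931 endothelial cells (y axis), in CPM with 0.5 added, on log scales; grey points are all compared genes, coloured points are genes of 6 lists, and the dotted lines mark a 2-fold difference. MHC class II genes sit far above the diagonal, Cd74 at 9.60 and 2361 CPM, while Igfbp3, Kcnj8 and Sparc lie below it.

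Antigen display by MHC class II showed the widest difference of any list. These molecules present peptides to CD4+ T cells and are carried mainly by professional antigen-presenting cells. All 7 compared genes of the list were higher, with a median log2 ratio of 7.95 beside -0.14 over all genes. Cd74, the invariant chain that guides class II molecules, had 9.60 CPM in the vehicle and 2361 CPM in the TAK-931 cells, a log2 ratio of 7.94 (95% counting interval 7.20 to 8.81). That ratio was 6.83 with each cell thinned and 10.62 with free RNA subtracted, which moved the list median to 10.05, so its size is loosely fixed while its direction was kept in the 10 alternatives run for it. The β chain gene H2-Ab1 had 2.74 and 1103 CPM, with a log2 ratio of 8.65 (7.29 to 10.53). Its partner H2-Aa stood at 2.74 and 871 CPM and H2-Eb1 at 2.06 and 960 CPM. The vehicle levels rest on 3 to 14 UMIs each, so the vehicle endothelium was nearly without these transcripts. The peptide editor H2-DMa had 4.80 and 93.8 CPM. H2-DMb1 had 0 vehicle UMIs and 265 in TAK-931, at least 41.1-fold higher against a floor of 3 counts over the vehicle cells. Ciita, the master activator of class II genes, had 0 and 64 UMIs, at least 9.93-fold higher.

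The class II signal per cell was set beside the J558 cells, since free RNA reaches every droplet. J558 cells were deeper, with medians of 42481.5 (vehicle) and 73592 UMIs (TAK-931) against 15692 and 13314 in endothelial cells. Thinning to the same depth can therefore leave less free RNA in a J558 cell. The J558 shares here and below may understate the free RNA of endothelial droplets and are no upper bound for it. With each cell thinned to 4000 UMIs, the summed UMIs of the list had a median of 0 (highest 1) under vehicle and 12 under TAK-931 (quartiles 6 and 21, highest 198). A thinned class II UMI was found in 96.8% of the TAK-931 endothelial cells but also in 95.2% of the J558 cells of that library, so this share is not read as expression. Without Cd74, the share was 94.1% of endothelial cells (176 of 187, 89.7 to 97.0%) and 55.6% of J558 cells under TAK-931, with medians of 7 and 1 UMIs, and 0 of 79 endothelial cells under vehicle. H2-Ab1 alone was seen in 0 of 79 vehicle cells (up to 4.56%) and in 86.6% of TAK-931 cells (80.9 to 91.2%), where 29.8% of the J558 cells of that library, which should carry little of it, had a UMI. For Cd74 the share in TAK-931 J558 cells was 87.9%, close to the 92.0% of endothelial cells, so its share is not read as expression and its level is the more informative value. Free RNA was estimated at 10.8% of the Cd74, 18.5% of the H2-Aa, 11.6% of the H2-Ab1 and 13.8% of the H2-Eb1 level of the TAK-931 cells.

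Class II RNA was also present in the TAK-931 cells with little myeloid RNA. Cd74, H2-Aa, H2-Ab1 and H2-Eb1 summed to 14.2 CPM in the 77 myeloid-poor vehicle cells and to 2851 CPM in the 80 myeloid-poor TAK-931 cells. After thinning, a UMI of the class II list other than Cd74 was found in 70 of the latter (87.5%, 78.2 to 93.8%) and in 0 of the former, beside the 55.6% of TAK-931 J558 cells given above. The sum was 3561 CPM in the TAK-931 cells with 3 to 9 myeloid UMIs and 13163 CPM in the 32 cells with 10 or more, so it was highest where macrophage RNA was highest. All 6 list genes compared among the myeloid-poor cells were higher, with a median log2 ratio of 7.51.

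**Figure D2:**
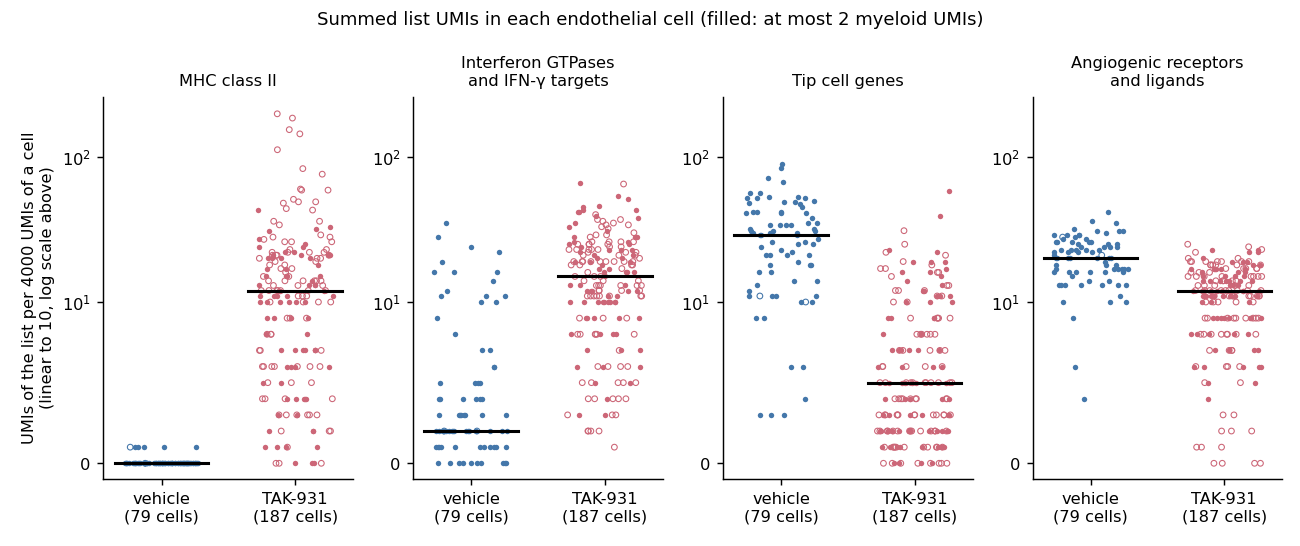
UMIs of 4 gene lists in each endothelial cell, per 4000 UMIs of that cell (y axis, linear to 10 and logarithmic above), in the vehicle and TAK-931 libraries; each point is a cell, filled points have at most 2 myeloid UMIs and the bar is the median; the angiogenic list is plotted with Kdr. The vehicle and TAK-931 medians were 0 and 12 for MHC class II, 2 and 15 for the interferon GTPases and 29 and 5 for tip cell genes, and filled and open points overlapped in each list.

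MHC class I genes, whose products show peptides of the cell's own proteins to CD8+ T cells, were higher by smaller factors from a high base. Of 20 list genes, 14 were higher and 0 lower, with a median log2 ratio of 1.59. The heavy chain gene H2-D1 had 1909 and 6930 CPM, a log2 ratio of 1.86 (1.80 to 1.92). H2-K1 had 1411 and 3963 CPM, and the light chain B2m had 2163 and 5550 CPM. The non-classical genes H2-Q7 (60.3 and 495 CPM) and H2-T23 (56.9 and 465 CPM) differed more, at log2 ratios of 3.04 and 3.03. Reads of closely similar H2 genes can be assigned to each other, so the split among them is uncertain. The peptide transporter Tap1 had 48.7 and 219 CPM, and the immunoproteasome subunits Psmb8 (179 and 643 CPM) and Psmb9 (81.6 and 380 CPM) were higher as well. Nlrc5, the activator of class I genes, had 6.85 and 36.1 CPM. The 6 genes not called included Psme2 (log2 ratio 0.40) and Erap1 (-0.19). In the myeloid-poor cells 15 of 20 were higher and 0 lower, with a median of 1.67, and the thinned UMIs per cell had a median of 24 under vehicle and 81 under TAK-931.

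The IFN-γ-induced GTPases, which attack the compartments of intracellular microbes, and other targets of IFN-γ were higher almost throughout. Of 21 list genes 20 were higher and 0 lower, with a median log2 ratio of 2.08, and in the myeloid-poor cells 18 of 19 were higher, with a median of 1.94. Gbp5 had 19.9 and 149 CPM, with a log2 ratio of 2.91 (2.36 to 3.50). Gbp6 had 11 and 144 CPM and Gbp10 had 1.37 and 47.2 CPM, although reads of these near-identical paralogues cannot always be told apart. Iigp1 had 394 and 1177 CPM and Gbp4 had 192 and 659 CPM. Gbp7 was the member not called, at 134 and 243 CPM. The factor Irf1 had 88.4 and 336 CPM, with a log2 ratio of 1.93 (1.66 to 2.20), and the complement inhibitor Serping1 had 5.48 and 174 CPM. Ubd, a ubiquitin-like modifier induced by IFN-γ and tumour necrosis factor, had 70.6 and 1421 CPM, with a log2 ratio of 4.33 (4.05 to 4.63), and was detected after thinning in 19% (vehicle) and 81.3% (TAK-931) of the cells.

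Genes known chiefly from the type I interferon response differed less evenly. Of 25 compared genes 9 were higher and 0 lower, with a median log2 ratio of 0.69, and in the myeloid-poor cells 10 of 24 were higher, 1 was lower and the median was 0.80. Bst2, which tethers virions, had 345 and 1297 CPM, and the surface proteins Ly6a (401 and 1878 CPM) and Ly6e (507 and 1446 CPM) were higher too. Irf7 had 48.7 and 221 CPM. The ubiquitin-like modifier Isg15 had 402 and 382 CPM, a log2 ratio of -0.07 (-0.22 to 0.07), and Rsad2 had 155 and 129 CPM, a log2 ratio of -0.27 (-0.50 to -0.02). Ifi27l2a had 2.06 and 376 CPM over all cells, but 1.42 and 29.6 CPM in the myeloid-poor cells.

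The promoter letters shown above were also counted over gene groups. An ISRE lay in the 250 bases before the start of 3.46% and a GAS of 8.13% of the 27025 genes with a RefSeq promoter. Among compared genes with a promoter, an ISRE was found in 8.10% of 617 higher genes, 2.65% of 718 lower genes and 2.91% of 6621 genes not called. A GAS was found in 11.3%, 6.96% and 6.77% of the same groups. In the GTPase list 10 of 13 promoters held an ISRE and 8 held a GAS, and 9 of the 10 genes with an ISRE were called higher. In the interferon-stimulated list 8 of 19 promoters held an ISRE, and of 7 compared genes with one only 3 were called higher, which leaves Isg15 among the genes that carried the letters without a higher level. The MHC class I list had an ISRE in 3 of 17 promoters. None of the 5 MHC class II promoters and 1 of the 10 chemokine promoters, that of Cxcl10, held an ISRE. These are counts of letters in these windows, and the lists were made of genes known to respond to interferon.

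Chemokine and cytokine genes were mostly higher in the TAK-931 cells, although part of them stood lower in the cells with little myeloid RNA. Of 15 compared genes 11 were higher and 0 lower, with a median log2 ratio of 1.95. Cxcl9, which draws CXCR3-bearing T cells, had 531 and 2263 CPM, a log2 ratio of 2.09 (1.98 to 2.20), and was detected after thinning in 30.4% and 84.0% of the cells. Cxcl10, a second ligand of CXCR3, had 334 and 1104 CPM. Cxcl12, which retains CXCR4-bearing cells at vessels, had 43.9 and 498 CPM, a log2 ratio of 3.51 (3.14 to 3.89). It was seen in 3.80% and 34.8% of thinned cells. Of its 64 vehicle UMIs 54.7% came from 1 cell, as did 19.4% of its TAK-931 UMIs. Its log2 ratio was 2.78 with the mean of each cell's CPM and 2.71 with each cell thinned. In the vehicle library a thinned UMI was found in 30.4% of endothelial and 0.232% of J558 cells for Cxcl9, in 24.1% and 0.265% for Cxcl10 and in 3.80% and 0% for Cxcl12. The J558 shares of the TAK-931 library were 4.84% for Cxcl9 and 4.03% for Cxcl10. The death ligand Tnfsf10 had 20.6 and 155 CPM, Il15 had 8.91 and 34.5 CPM, and Csf1 had 15.8 and 53 CPM. The neutrophil attractants Cxcl1 (352 and 213 CPM) and Cxcl2 (211 and 228 CPM) were not called.

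The 4 chemokines Ccl2, Ccl7, Cxcl16 and Ccl5 stood lower in the myeloid-poor TAK-931 cells than over all TAK-931 cells. Ccl2, a monocyte attractant, had 98.7 and 293 CPM over all cells and 98.1 and 141 CPM in the myeloid-poor cells, where its log2 ratio of 0.52 was not called. Ccl7 had 0 vehicle UMIs and 48.2 CPM under TAK-931, of which 55.6% came from 1 cell, and 1.02 CPM in the myeloid-poor TAK-931 cells. Cxcl16 had 3.43 and 62.2 CPM over all cells and 2.84 and 12.2 CPM in the myeloid-poor cells. Ccl5, also a T cell gene, was at 0.685 and 244 CPM over all cells and at 0.711 and 90.8 CPM in the myeloid-poor cells. Free RNA was estimated to make up 30.5% of its TAK-931 level. It was seen in 20.9% of thinned endothelial and 22.6% of thinned J558 cells of that library, so the share of cells is not read as expression. In the myeloid-poor cells 7 of 11 list genes were higher and 1 lower, with a median log2 ratio of 1.79. Cxcl9, Cxcl12 and Tnfsf10 had log2 ratios of 2.31, 3.08 and 3.15 there.

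Among the molecules that hold leukocytes on the vessel wall, Vcam1, Ackr1 and Cx3cl1 were higher. Vcam1, a ligand of the integrin VLA-4, had 34.3 CPM in the vehicle and 380 CPM in the TAK-931 cells, a log2 ratio of 3.47 (3.06 to 3.91), and 3.60 (3.17 to 4.07) in the myeloid-poor cells. A thinned Vcam1 UMI was found in 8.86% (3.64 to 17.4%) of the vehicle and 54.5% (47.1 to 61.8%) of the TAK-931 endothelium, against 1.61% of TAK-931 J558 cells. Icam1 had 116 and 211 CPM, E-selectin (Sele) 24.7 and 40.5 CPM and P-selectin (Selp) 92.5 and 74.3 CPM, and none of them was called. The chemokine receptor Ackr1, a venular gene, had 8.91 and 37.6 CPM but a UMI in 10.1% and 10.2% of cells, and 1 TAK-931 cell held 35.6% of those of its library, while the adhesion molecule Mcam, also in the tip cell list, had 605 and 159 CPM. Cx3cl1, a membrane-bound chemokine, had 0 vehicle and 45 TAK-931 UMIs, at least 6.98-fold higher against a floor of 3 counts, and with 0 and 12 UMIs it was not compared in the myeloid-poor cells. Of 11 compared adhesion genes 3 were higher and 1 lower, with a median log2 ratio of 0.40 that changed sign with each cell thinned (-0.13). The adhesion count in the myeloid-poor cells was 2 higher and 1 lower of 10, with a median of 0.07. Of 15 NF-κB targets 4 were higher and 0 lower, namely Vcam1, Ccl2, Traf1 and Irf1, and the inhibitor Nfkbia had a log2 ratio of 0.33. The NF-κB list had 3 higher and 1 lower genes and a median of 0.04 in the myeloid-poor cells.

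Ligands of T cell checkpoints were sparse, with 8 of 15 list genes compared, 3 of them higher and 1 lower, and with 1 of 6 higher and 0 lower in the myeloid-poor cells. Cd274, which encodes PD-L1, had 7.54 and 93.5 CPM, a log2 ratio of 3.63 (2.77 to 4.65), and 3.21 (2.29 to 4.28) in the myeloid-poor cells. After thinning, a Cd274 UMI was seen in 2.53% of vehicle and 25.1% of TAK-931 endothelial cells, beside 16.8% and 16.9% of J558 cells, so the J558 share was alike in both libraries. Ido1, which degrades tryptophan, had 0 vehicle and 44 TAK-931 UMIs, 36.4% of them in 1 cell. Cd86 had 0 and 37 UMIs over all cells and 1.02 CPM in the myeloid-poor TAK-931 cells. Nectin2 was lower, at 185 and 76.2 CPM, but was not called in the myeloid-poor cells (187 and 105 CPM).

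The called sprouting genes were mostly lower, led by Igfbp3. Of 15 tip cell genes 7 were lower and 1 higher, with a median log2 ratio of -0.94, and the count was again 7 lower and 1 higher in the myeloid-poor cells, with a median of -0.88. The insulin-like growth factor binding protein Igfbp3 had 4651 CPM in the vehicle and 249 CPM in the TAK-931 cells, a log2 ratio of -4.22 (-4.33 to -4.11) over all cells and -3.43 in the myeloid-poor cells (4799 and 445 CPM), and was seen after thinning in 97.5% and 32.1% of cells. Esm1, an endothelial proteoglycan of sprouting vessels, had 130 and 21.4 CPM, and Dll4, the Notch ligand of tip cells, had 183 and 55.8 CPM. Summed over the list, the thinned UMIs per cell had a median of 29 (quartiles 15 and 41.5) under vehicle and 5 (2 and 9) under TAK-931. At least 10 such UMIs were found in 89.9% of cells under vehicle (71 of 79) and 21.9% under TAK-931 (41 of 187), so the ranges of the groups overlapped. Igfbp3 supplied much of this sum. Apln (70.6 and 36.7 CPM) and Angpt2 (93.2 and 77.5 CPM) were not called, and placental growth factor, Pgf, was higher at 29.5 and 135 CPM.

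Receptors for VEGF and its partners were mostly lower or not called. Of 20 angiogenic receptors and ligands other than Kdr 8 were lower and 3 higher, with a median log2 ratio of -0.66, and 8 of 19 were lower and 2 higher in the myeloid-poor cells, with a median of -0.59. Flt1, the VEGF receptor that also acts as a decoy, had 1195 and 367 CPM, a log2 ratio of -1.71 (-1.81 to -1.60), and was seen in 97.5% and 55.6% of thinned cells. Flt4, the receptor of Vegfc, had 130 and 25.5 CPM, and the co-receptor Nrp1 had 297 and 128 CPM. Kdr, the main VEGF receptor and a gene of the gate, had 688 and 344 CPM. The apelin receptor Aplnr (607 and 229 CPM) and the Notch ligand Dll4 were lower, while another Notch ligand, Jag1, was higher at 24.7 and 97.3 CPM. The angiopoietin receptors Tek (log2 ratio -0.52) and Tie1 (-0.14) were not called. With the ratios divided by the median, 5 genes of this list were lower and 4 higher, and Nrp1 (-0.96), Notch1 and Bmpr2 were no longer called. Vegfa had 4.80 and 22 CPM over all cells and 4.98 and 1.02 CPM, from 7 and 1 UMIs, in the myeloid-poor cells.

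**Figure D3:**
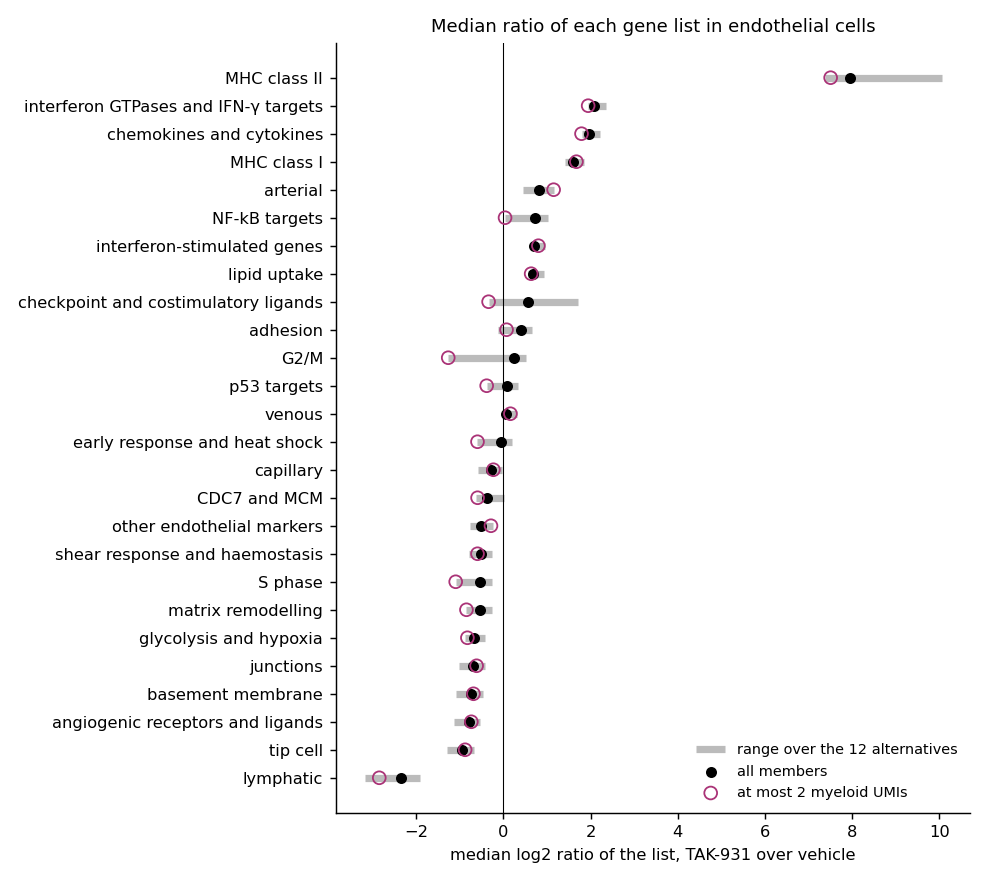
Median log2 ratio of TAK-931 over vehicle (x axis) for each gene list in the endothelial cells; black points are all cells, open circles the cells with at most 2 myeloid UMIs and grey bars the range over the 12 alternatives, with Kdr counted in the angiogenic list. MHC class II stands at 7.95 and the tip cell list at -0.94, and the G2/M list moves from 0.23 to -1.27 in the cells with little myeloid RNA.

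The matrix genes of the vessel wall leaned lower. Of 14 basement membrane genes 4 were lower and 0 higher, with a median log2 ratio of -0.74. The matricellular protein Sparc had 9405 and 2973 CPM, a log2 ratio of -1.66 (-1.70 to -1.62), and the linker nidogen Nid1 had 671 and 141 CPM. Fibronectin, Fn1, had 582 and 230 CPM. The collagen IV chain Col4a1 had 5018 and 3014 CPM and was not called. Of 11 matrix remodelling genes 4 were lower and 2 higher. The membrane protease Mmp14 had 521 and 74.3 CPM and the inhibitor Timp1 had 240 and 20.4 CPM, a log2 ratio of -3.55 (-3.96 to -3.17). Another inhibitor of this family, Timp2, was higher at 17.8 and 63.5 CPM. The counts were the same in the myeloid-poor cells, with 4 lower of 14 and with 4 lower and 2 higher of 11.

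Some genes of contacts between the cells and of their control of blood flow also differed. Of 11 junction genes 3 were lower and 0 higher: the gap junction gene Gja1 (882 and 193 CPM), the catenin Ctnnb1 (543 and 214 CPM) and the protocadherin Pcdh12 (67.9 and 23.6 CPM). The barrier gene Cldn5 had 480 and 310 CPM and was not called. In the myeloid-poor cells 4 of the 11 were lower. Of 10 genes of shear response and haemostasis 3 were lower and 2 higher, in all cells and in the myeloid-poor cells alike. Nos3, which makes the vasodilator nitric oxide, had 99.4 and 33.8 CPM, and the coagulation inhibitor Tfpi had 502 and 122 CPM. Edn1, the precursor of the vasoconstrictor endothelin, had 24 and 277 CPM, a log2 ratio of 3.53 (3.04 to 4.06), and was seen in 2.53% and 40.1% of thinned cells. Von Willebrand factor, Vwf, had 15.1 and 53.3 CPM. The flow-induced factor Klf2 had 575 and 324 CPM and was not called.

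The lowest ratio among named genes belonged to an ATP-sensitive potassium channel. The genes named singly were taken from both ends of the ratio, 15 a side, among well-counted genes. Kcnj8, the pore subunit, lies at chr6:142564837-142571614 and Abcc9, the sulphonylurea receptor subunit, beside it at chr6:142587862-142702315 (GRCm38). Kcnj8 had 547 CPM in the vehicle and 6.38 CPM in the TAK-931 cells, a log2 ratio of -6.42 (-7.14 to -5.78), and UMIs in 72 of 79 and 13 of 187 cells. Abcc9 had 368 and 7.66 CPM, a log2 ratio of -5.59 (-6.24 to -5.00), and UMIs in 71 and 17 cells. The channel was thus found in nearly every vehicle cell and in few TAK-931 cells. This channel is best known from mural cells. The other 5 genes of the mural list that the gate had not used, Pdgfrb, Cspg4, Acta2, Myh11 and Notch3, summed to 6.17 and 5.10 CPM in the endothelial cells, and Myh11 had no UMI in either library. In mural cells the levels were similar, 136 and 159 CPM for Kcnj8 and 256 and 231 CPM for Abcc9. Their log2 ratios were -5.89 and -5.70 in the myeloid-poor endothelial cells.

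The other lowest genes included guidance, hormone and protease genes. The insulin receptor Insr had 489 and 33.2 CPM, and was seen in 69.6% and 12.8% of thinned cells. The potassium channel subunit Kcne3 had 188 and 5.74 CPM, the axon guidance receptor Robo1 had 55.5 and 1.91 CPM and the repulsive ligand Sema3a had 67.2 and 2.87 CPM. The aggrecanase Adamts5 (195 and 9.89 CPM), the protease inhibitor Tfpi2 (162 and 9.25 CPM), the transmembrane collagen Col13a1 (108 and 7.34 CPM) and the transcription factor Maf (146 and 8.93 CPM) were lower as well. So were Mpzl2 (36.3 and 0.638 CPM), the nitric oxide synthase trafficking gene Nostrin (34.3 and 1.60 CPM) and the ribonuclease Rnase4 (112 and 7.66 CPM), together with Igfbp3 and Timp1. All 15 were also lower under the 10% mitochondrial limit and in the myeloid-poor cells.

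Among the highest named genes, Chga was found under TAK-931 alone. It encodes chromogranin A, a protein of secretory granules, and had 0 vehicle UMIs and 957 TAK-931 UMIs (305 CPM), at least 148-fold higher against a floor of 3 counts over the vehicle cells. Its UMIs came from 42 cells, of which 31 had 3 or more, and the cell with the most held 18.6% of them. The 31 cells were endothelial by Fabp4 (4333 CPM, against 9109 CPM in the 145 cells with no Chga UMI) and held less Flt1 (147 against 430 CPM). In the fibroblasts, mural cells, macrophages and J558 cells of the TAK-931 library, described below, Chga had at most 3 UMIs. Over all other kept cells of that library it stood at 5.02 CPM, so it was not confined to the endothelial cells. Histidine decarboxylase, Hdc, had 7.54 and 74.0 CPM, and the arrestin-domain gene Arrdc4 had 10.3 and 137 CPM. The kinase Nuak1 (1 and 54 UMIs), the ubiquitin ligase Rnf152 (2 and 88), the heparan sulphate sulphotransferase Hs3st1 (2 and 85), the IFN-γ-induced factor Batf2 (2 and 79) and the carbonic anhydrase Car7 (2 and 53) completed the group beside Gbp6, Gbp10, Serping1, Ubd, Edn1, Cxcl12 and Vcam1. In the myeloid-poor cells 12 of the 15 were called higher, and Nuak1, Batf2 and Car7 were not, each with fewer than 20 UMIs there.

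**Figure D4:**
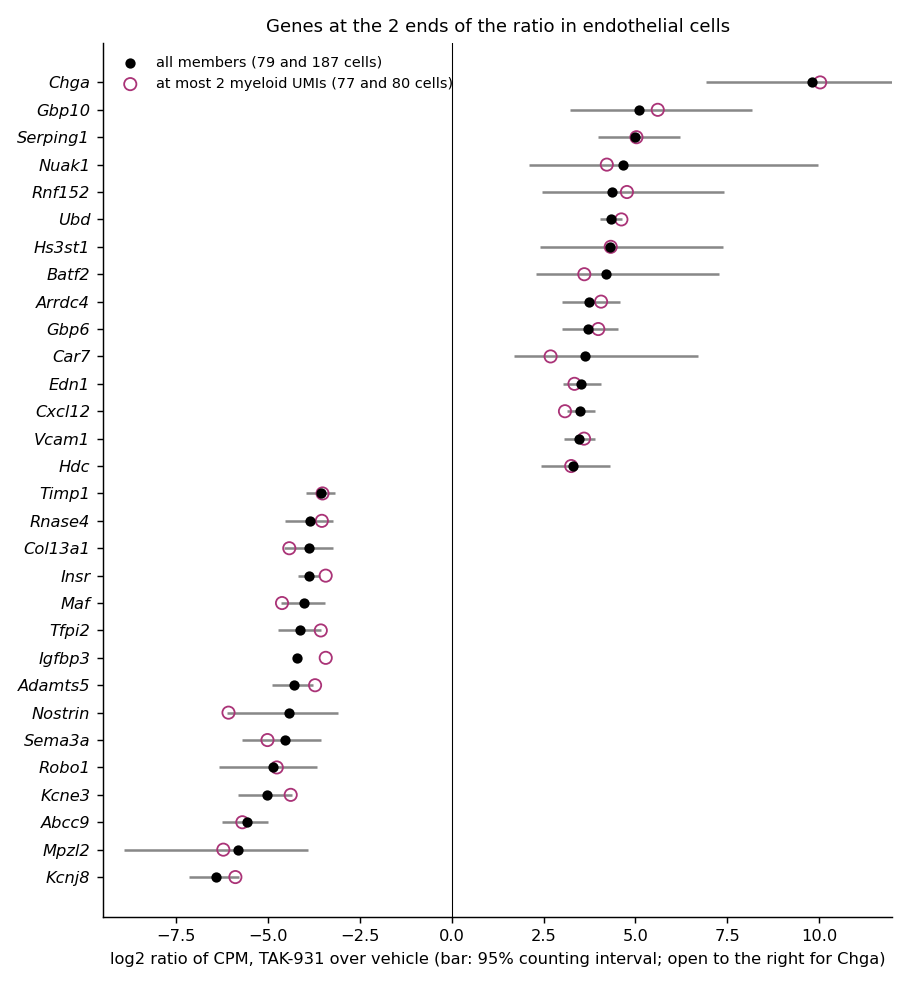
Log2 ratio of TAK-931 over vehicle (x axis) for the 15 highest and 15 lowest named genes in the endothelial cells, with black points and 95% counting intervals for all 79 and 187 cells and open circles for the 77 and 80 cells with at most 2 myeloid UMIs. The ratios run from -6.42 for Kcnj8 to the top entry, Chga, whose vehicle count is 0 and whose interval has no upper bound, and every open circle lies on the same side of 0 as its black point.

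Genes that mark kinds of vessel differed in both directions. Of the capillary genes Car4, a membrane carbonic anhydrase, had 462 and 39.9 CPM and Btnl9 had 153 and 20.4 CPM, while Rgcc was higher at 109 and 383 CPM and Gpihbp1, which anchors lipoprotein lipase, had 1104 and 794 CPM. Of the venous genes Lrg1 had 1611 and 291 CPM, and Vwf and Ackr1 were higher. Of the arterial genes Fbln5 had 50 and 217 CPM and the Notch target Hey1 had 123 and 55.5 CPM. List medians were -0.29 for 8 capillary, 0.05 for 6 venous and 0.82 for 7 arterial genes. The myeloid-poor cells gave medians of -0.23 (1 higher and 2 lower of 8), 0.16 (2 higher and 1 lower of 6) and 1.15 (4 higher and 1 lower of 6). The lymphatic list had 3 compared genes, with Lyve1 at 17.8 and 0.638 CPM, Flt4 as given above and the lymphatic regulator Prox1 at 4.80 and 4.47 CPM, and both genes compared in the myeloid-poor cells were lower.

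Genes of fatty acid handling and sugar metabolism differed in a minority of members. Of 13 lipid genes 4 were higher and 0 lower, with a median log2 ratio of 0.67, and 3 of 10 were higher in the myeloid-poor cells. Fabp5 had 666 and 1465 CPM, the lipid regulator Pparg had 32.9 and 75.3 CPM and the factor Meox2 had 24.7 and 95.1 CPM. The carrier Fabp4, at 5137 and 8166 CPM, and the fatty acid receptor Cd36, at 497 and 696 CPM, were not called. Lpl had 0 and 58 UMIs, of which 67.2% came from 1 cell. Of 20 glycolysis and hypoxia genes 4 were lower and 3 higher in all cells and 8 of 18 were lower and 1 higher in the myeloid-poor cells. Lactate dehydrogenase, Ldha, had 519 and 171 CPM, and the enolase Eno1 had 162 and 70.8 CPM, while the glycolytic activator Pfkfb3 had 45.9 and 125 CPM. With the ratios divided by the median, 1 gene of this list was lower and 4 were higher.

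The target of TAK-931 was measured at low levels. Cdc7 had 14 UMIs (9.60 CPM) in the vehicle and 23 UMIs (7.34 CPM) in the TAK-931 cells, a log2 ratio of -0.39 (-1.41 to 0.68), and its partner Dbf4 had 28.8 and 25.8 CPM. These are transcript levels and give no measure of kinase activity. Of 28 S phase genes 4 were lower and 0 higher, with a median log2 ratio of -0.53. Over all compared genes 9.23% were lower and the median was -0.14. Thymidylate synthase, Tyms, had 87.7 and 26.2 CPM. In the myeloid-poor cells 12 of 24 S phase genes were lower and the median was -1.10, beside 13.4% and -0.29 over all genes. Of 32 G2/M genes 5 were higher and 2 lower in all cells, with a median of 0.23, and 9 of 15 were lower and 0 higher in the myeloid-poor cells, with a median of -1.27. The proliferation marker Mki67 had 16.5 and 19.1 CPM over all cells, but 17.1 and 1.02 CPM in the myeloid-poor cells and 34.9 CPM in the TAK-931 cells with 3 to 9 myeloid UMIs. The G2/M median also changed sign over all cells, to -0.43 with the mean of each cell's CPM, -0.25 with each cell thinned and -0.07 over genes with 100 or more UMIs, so no direction is read for this list. Thinned cells had a median of 2 G2/M UMIs in both libraries. The myeloid-poor TAK-931 cells were also shallower, with a median of 10091 UMIs against 15495 in the myeloid-poor vehicle cells.

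Damage and stress genes differed in a few members. Of 21 p53 targets 5 were higher and 0 lower, with a median log2 ratio of 0.07. Of 19 compared in the myeloid-poor cells 2 were higher, with a median of -0.38 beside -0.29 over all genes there. The cell cycle inhibitor Cdkn1a had 128 and 282 CPM over all cells, a log2 ratio of 1.14 (0.91 to 1.38), and 130 and 140 CPM in the myeloid-poor cells, where it was not called. Of 16 early response and heat shock genes 3 were higher and 0 lower: Hspa1a (820 and 2538 CPM), Hspa1b (720 and 1971 CPM) and Hsph1 (68.5 and 191 CPM). The early genes Fos (1277 and 922 CPM) and Jun (1593 and 998 CPM) were not called. Genes of this list, the called heat shock genes included, also respond to tissue dissociation, and its part was not tested. The myeloid-poor cells had 3 higher and 2 lower of the 16, with a median of -0.60.

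The differences were set beside those of 4 other classes of kept cells, without a test, since each class had 1 library per group. These were fibroblasts (11 vehicle and 35 TAK-931 cells), mural cells (21 and 22), macrophages (65 and 796) and J558 cells (3022 and 124), each chosen by its own marker UMIs. The class I gene H2-D1 was higher in fibroblasts (425 and 5546 CPM), mural cells (1806 and 7985 CPM) and macrophages (2355 and 6308 CPM), and nearer to even in J558 cells (1265 and 1493 CPM). H2-Ab1 was higher in all 4 classes, with log2 ratios between 1.66 in macrophages and 5.84 in fibroblasts, below the 8.65 of the endothelial cells. Cxcl9 went from 2.64 to 1038 CPM in fibroblasts and from 108 to 1466 CPM in mural cells. The list medians of the GTPases were 3.15, 3.05, 1.63 and 2.32 in fibroblasts, mural cells, macrophages and J558 cells.

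Of the lower genes, several were set beside the same classes. Sparc had 8894 and 9659 CPM in fibroblasts and 6012 and 5695 CPM in mural cells, where the endothelial cells had 9405 and 2973 CPM. Insr, at 489 and 33.2 CPM in endothelial cells, was at or below 24 CPM in each other class. Igfbp3 had 161 and 111 CPM in fibroblasts. Timp1 was lower in mural cells too (2392 and 190 CPM), and less so in fibroblasts (1429 and 754 CPM). The basement membrane list had medians of 1.11 in fibroblasts and -0.11 in mural cells against -0.74 in endothelial cells. Vcam1 had the opposite direction in macrophages, 932 and 216 CPM. Whether any of these ratios differs between classes beyond the variation among tumours cannot be told from 1 library per group.

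**Figure D5:**
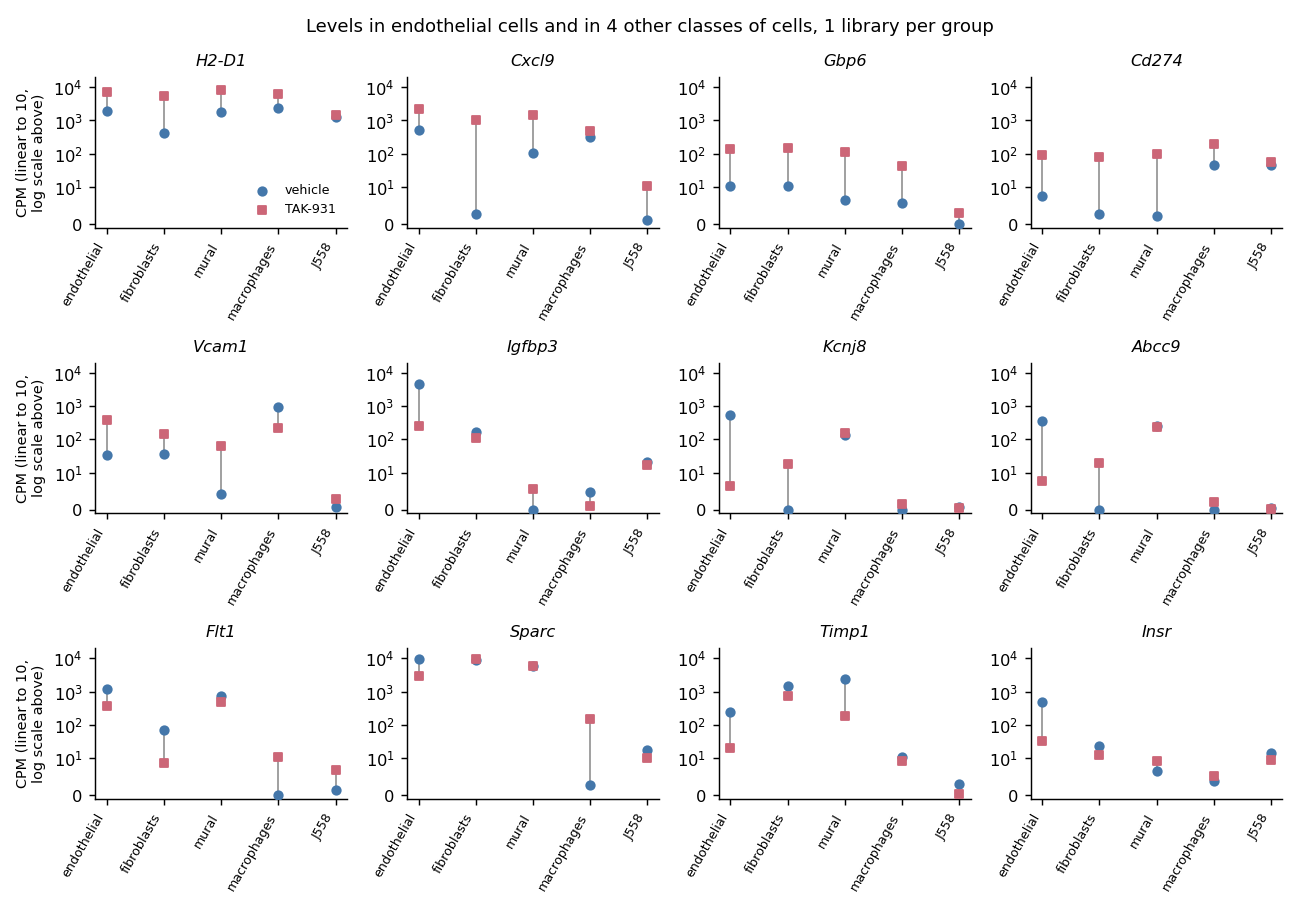
Level of 12 genes (y axis, CPM, linear to 10 and logarithmic above) in endothelial cells and 4 other classes of kept cells, with a circle for the vehicle and a square for the TAK-931 library. The squares of H2-D1 and Cd274 stand above the circles outside J558 cells, where H2-D1 had 1265 and 1493 CPM and Cd274 had 47.2 and 56.6 CPM, while Kcnj8 and Abcc9 differ in endothelial cells and are alike in mural cells.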

How the data were processed

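The comparison was between 1 vehicle and 1 TAK-931 library, each from 1 J558 allograft on day 6. The authors dissociated the tumours, prepared 10x Genomics 3′ v3.1 libraries and counted with Cell Ranger 6.0.0, as the file headers and the submitters' processing notes state. The notes name the build mm10, and the gene identifiers are those of mouse. The deposited values are raw UMI counts for each gene and barcode, with no normalization, in 4565 vehicle and 6558 TAK-931 barcodes that held 144767193 and 77369283 UMIs.

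The limits on genes and mitochondrial UMIs are those of the study's methods. Doublets were not called here, and the methods name no step that removed them. UMIs of the endothelial cells were summed per library and divided by their total, and ratios were given with exact conditional binomial 95% intervals. If either count was 0, the ratio was taken with 0.5 added to each, and folds called "at least" used a floor of 3 counts over the cells of the library. Intervals of shares are exact (Clopper-Pearson), and for shares of cells with a UMI each cell was thinned to 4000 UMIs (seed 1, shallower cells left out). The 15 highest and the 15 lowest genes were named among compared genes that had, in the library where they were higher, 50 or more UMIs, UMIs in 10 or more cells, at most 25% of their UMIs in 1 cell and a level no lower than in the other kept cells. Genes named mt-, Rpl, Rps, Gm or Rik and haemoglobin and immunoglobulin genes were left out of that choice. Genes of the lists were named too. The cells, gene lists and rules were chosen with earlier results of these data known. Alternatives covered the limits, a stricter gate, the denominator, weighting, scaling, free RNA, thinning and the minimum UMIs. Those on myeloid UMIs, on marker UMIs and on Csf1r were chosen after the data had been seen. Gene positions come from GENCODE vM21 (GRCm38) and promoters from RefSeq (GRCm38.p6). Python 3.11.15, numpy 2.4.6, scipy 1.17.1, pandas 2.3.3 and matplotlib 3.10.9 were used, and the calling script was tested on simulated data.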

Additional observations from a re-analysis of the deposited data

Results flagged for a closer look

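Barcodes outside the limits on genes and mitochondrial UMIs were not used in the report, and part of them passed the endothelial gate. They were 9 of 1124 such barcodes (0.801%, exact interval 0.367 to 1.51%) in the vehicle and 166 of 3070 (5.41%, 4.63 to 6.27%) in the TAK-931 library. Their median depth was 3093 and 4785 UMIs. In these barcodes Cd74 stood at 36.8 CPM (vehicle) and 1080 CPM (TAK-931), Igfbp3 at 7098 and 218 CPM and Kcnj8 at 331 and 4.92 CPM. The macrophage list, Csf1r included, summed to 36.8 and 1453 CPM in them.

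Of the genes named singly, 4 had at least a 2-fold difference in another class of cells that was opposite to that in endothelial cells, with a counting interval that excluded an even level. The carbonic anhydrase Car7, higher in TAK-931 endothelial cells, had a log2 ratio of -1.17 in J558 cells, from 335 and 10 UMIs (2.49 and 1.11 CPM). Vcam1, also higher there, had a log2 ratio of -2.11 in macrophages (932 and 216 CPM). Maf, lower in TAK-931 endothelial cells, had 1.27 in mural cells (45.3 and 109 CPM) and 3.37 in J558 cells (0.774 and 7.99 CPM). Rnase4, lower as well, had 1.21 in fibroblasts (243 and 562 CPM). With 1 library per group, the difference between classes was not tested.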

How the results depend on the processing

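No paired analysis was possible because each group had 1 library, and for the same reason no replicate could be left out. The TAK-931 minus vehicle difference in endothelial share, 3.07 points, was 1.98 with under 10% mitochondrial UMIs, 1.32 with the stricter gate, 0.0559 in myeloid-poor cells, 2.01 with 20 or more marker UMIs, 4.93 without the Csf1r limit and -13.3 over kept cells other than J558 cells. The 809 higher genes became 464 with the stricter gate, 374 in myeloid-poor cells, 359 with thinned cells and 334 with 100 or more UMIs per gene. The 926 lower genes became 542 with ratios divided by the median and 425 with 100 or more UMIs. Thinning and the higher minimum leave fewer UMIs or genes by construction. For the other changes the cause was not tested. The tip cell median of -0.94 was -0.73 (stricter gate), -0.68 (scaled) and -0.75 (thinned). The MHC class I median of 1.59 was 1.41 without the Csf1r limit, 1.86 scaled and 1.41 thinned. The basement membrane median of -0.74 was -1.09 without that limit and -0.48 scaled, the angiogenic one of -0.79 (Kdr included) was -1.12 without it, and the chemokine one of 1.95 was 2.21 scaled. The G2/M median of 0.23 was -1.27 in myeloid-poor cells and the adhesion median of 0.40 was -0.13 with thinned cells. In myeloid-poor cells Vegfa (-2.29, from 7 and 1 UMIs), Hk2 (-1.06, from 1 and 0) and Cenpf (-0.48, from 4 and 2) changed sign with too few UMIs to be compared, and Ube2c (-1.62) was called lower. Uhrf1 (0.17) changed sign with thinned cells and was not called. Of 1490 single-gene ratios under the alternatives, 1203 stayed within the counting interval of the reported value, 282 left it and the 5 just named, all of genes called over all cells, changed sign. A further 22 sign changes, of 9 genes not called over all cells, are counted among the former groups. Of 312 list medians 265 stayed within the median counting bounds of their genes, and of 72 shares of cells with a UMI 54 stayed within their intervals.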

Other observations

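In the TAK-931 library, 90 kept barcodes met the endothelial thresholds and were left out of the report for Csf1r. They were deep, with a median of 24716 UMIs against 13314 in the endothelial cells, and 87 of them had a Ptprc UMI. The macrophage list, Csf1r included, summed to 14956 CPM and the plasmacytoma list, Trap1a included, to 5095 CPM in them. Fabp4 stood at 2895 CPM and Vcam1 at 302 CPM. No such barcode was found in the vehicle library. The origin of these barcodes was not tested.

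Among the 187 TAK-931 endothelial cells, 39 had fewer than 20 UMIs of Cdh5, Kdr, Plvap and Esam together, and 14 of these had a Ptprc UMI. Their macrophage list, Csf1r included, summed to 9754 CPM, Cd74 stood at 5751 CPM and Fabp4 at 2148 CPM, beside 2164, 2361 and 8166 CPM over all 187. Ubd, an interferon target, had 1642, 1516 and 857 CPM in the TAK-931 cells with at most 2, with 3 to 9 and with 10 or more myeloid UMIs, and Vcam1 had 414, 410 and 257 CPM.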
